A study of Mus musculus with 12 samples.

Results

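The Wnt genes described here are 47 of the 55679 genes in the deposited gene table. They were picked by a rule on gene symbols that uses no measured value, though earlier results of these data were known. They comprise 19 Wnt ligands, the 10 Frizzled receptors, 4 co-receptors (Lrp5, Lrp6, Ror1 and Ror2), 9 secreted antagonists (Sfrp1, Sfrp2, Sfrp4, Sfrp5, Dkk1 to Dkk4 and Wif1), the 4 R-spondins and the feedback gene Axin2. They were read in lung and heart of male mice aged 9 to 13 weeks on the 129S6/SvEvTac background, 3 wild-type mice (WT) and 3 mice homozygous for an Adam19-tdTomato allele (KO), with 1 library for each tissue of each mouse and 12 libraries in all. In the KO allele, exons 6 and 7 of Adam19, a gene for a membrane-anchored metalloprotease, are replaced by a tdTomato construct with a Hygromycin resistance cassette. The allele is carried in the germline, so it acts in every cell of both organs, and the WT mice carry no allele of this kind. Organs were taken whole and frozen, so each library mixes all the cell types of the organ.

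Wnt ligands are lipid-modified secreted proteins that bind Frizzled receptors. Together with Lrp5 or Lrp6 they stabilise beta-catenin, which switches on target genes such as Axin2 with TCF and LEF factors, while Ror1 and Ror2 take part in signalling that does not use beta-catenin. Secreted frizzled-related proteins and Wif1 bind the ligands themselves, Dickkopf proteins act on the co-receptors, and R-spondins raise the amount of receptor at the cell surface. In the lung this pathway is known for its part in specifying the organ and in maintaining alveolar stem cells, and in the heart for its part in forming the muscle and the valves.

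Each value below is a gene abundance on a log2 scale as deposited. For genes with a single transcript it is close to the log2 of 1 plus an estimated read count with a constant added for each library. For genes with several transcripts it can depart from the summed counts of these transcripts. The summed estimated counts ran from 17674788 to 35862932 per library, and 27 of the 47 genes are marked as detected in the table. Adam19, the targeted gene, stood at 9.12 to 9.41 in the WT lungs against 3.21 to 4.44 in the KO lungs, and at 9.17 to 10.27 in the WT hearts against 6.01 to 6.67 in the KO hearts, so every library matched its label. Exons outside the replaced part can still be read in the KO. The small RNA Rn7s1 took 2.10% to 34.0% of the summed abundance of a lung library and 2.70% to 11.8% of a heart library, with the lowest share in the lung of WT replicate 3. In the hearts 5 markers of lung epithelium reached at most 0.186% (Sftpc), 0.214% (Sftpb), 0.248% (Ager), 0.280% (Sftpa1) and 0.424% (Scgb1a1) of their median lung levels. Hopx, Foxj1 and Krt5, also on the epithelial lists, were not expressed in this way. Of these lists, 4 of 5 alveolar and 2 of 3 airway markers were higher in the lung. The summed alveolar markers were at 12.54 to 13.03 in the hearts and 17.64 to 18.31 in the lungs. Myh6, the heavy chain of heart muscle myosin, reached at most 1.64% of its median heart level in the lungs. Because whole organs were sequenced, fewer cells of a type and less RNA per cell cannot be told apart.

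**Figure D1:**
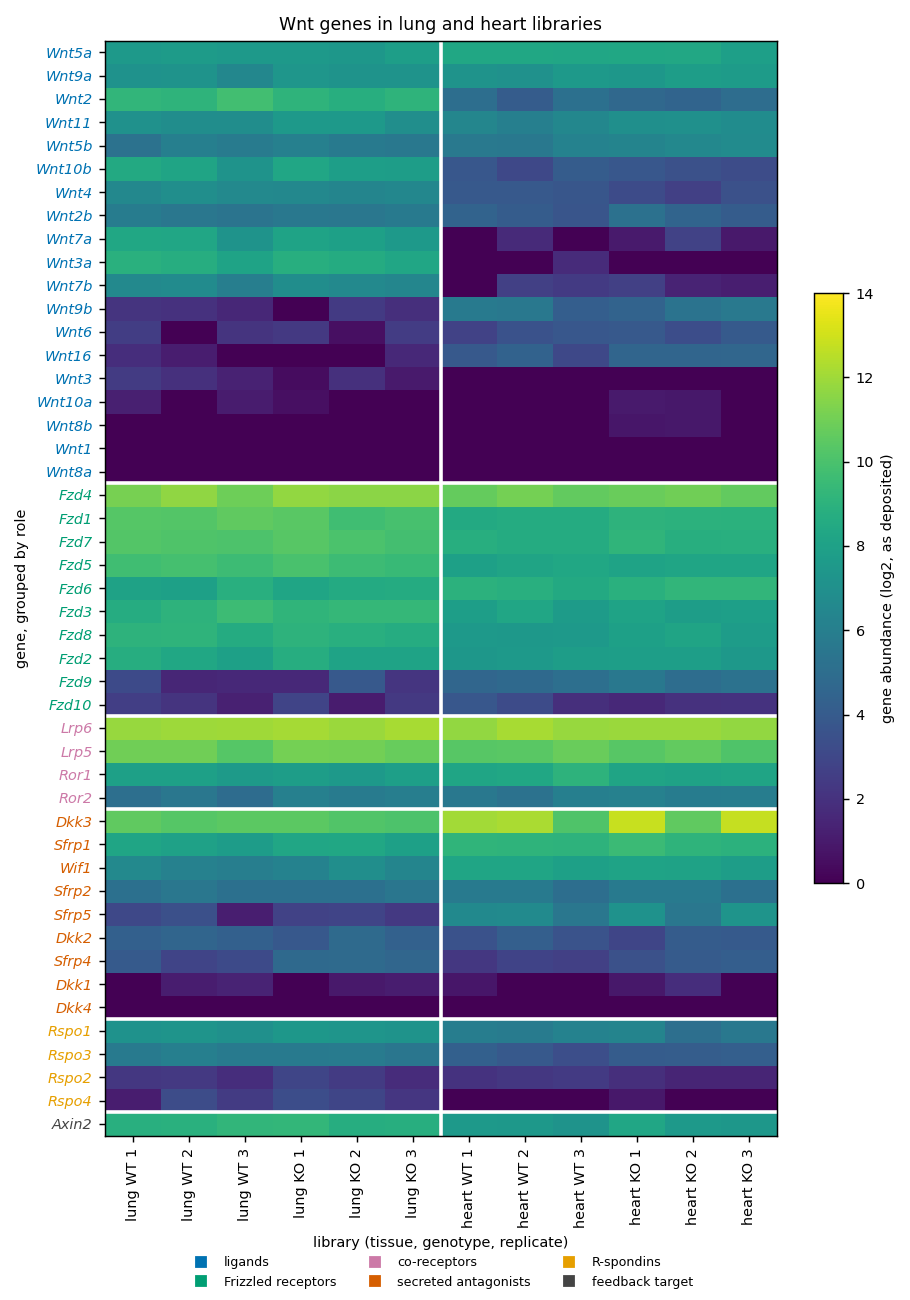
Gene abundance (log2, as deposited; colour scale from 0 to 14) of the 47 Wnt genes (rows, grouped by role and sorted within a role by their mean) in the 12 libraries (columns). Wnt3a, Wnt7a and Wnt7b are at most 2.78 in the hearts and between 5.97 and 8.87 in the lungs.

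A gene was tested where its value was at least 3.46 in at least 3 libraries. Of the 47 genes, 37 passed this filter over the 12 libraries. The 10 genes under it were Wnt1, Wnt3, Wnt8a, Wnt8b, Wnt10a, Fzd10, Dkk1, Dkk4, Rspo2 and Rspo4, and 3 of them, Wnt1, Wnt8a and Dkk4, were listed at 0 in every library. Wnt3 was present at 0.48 to 2.44 in the 6 lungs and listed at 0 in the 6 hearts. With a floor of 3 counts over the 6 hearts its level relative to library depth was at least 5.27-fold higher in the lungs. Rspo4 held 35.3 estimated counts over the lungs and 0.994 over the hearts, at least 14.9-fold higher against the same floor.

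The first comparison asked how the Wnt genes differ between the 2 organs, with the mean of WT and KO in each. Of the 37 genes tested, 15 were higher and 5 lower in the lung by limma, with thresholds of 0.05 on the Benjamini-Hochberg adjusted p, 1.5 on the fold change and 6 on the larger group mean. This is 54.1% of the 37, beside 51.3% of the 17666 genes tested, of which 30.1% were higher and 21.2% lower. The median difference was 0.62 over the 37 Wnt genes and 0.31 over all genes, so a difference near 0.31 is that of a typical gene on this scale. When the libraries were centred on their medians the split was 13 higher and 8 lower, with limma-voom 13 and 9, and with quantile normalization 14 and 10. The 6 lungs and the 6 hearts did not overlap for 25 of the 37 genes, beside 57.4% of all genes. By role, 7 of 14 ligands tested passed, 6 of them higher in the lung, as did 7 of 9 Frizzled receptors, all higher in the lung, and 4 of 7 antagonists, all lower in the lung. None of the 4 co-receptors passed.

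**Figure D2:**
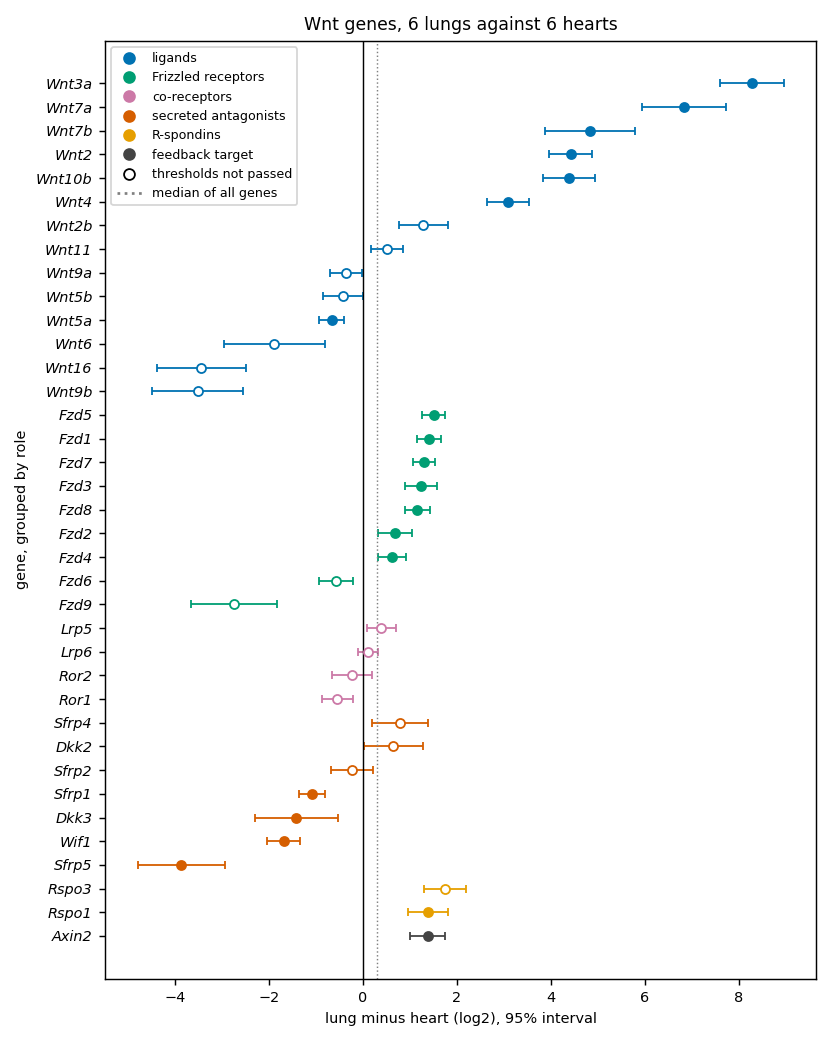
Difference between the 6 lungs and the 6 hearts (log2) with its 95% interval for the 37 Wnt genes tested, grouped by role. Filled points passed the thresholds, open points did not, and the dotted line is the median of all genes at 0.31. The ligands spread from -3.51 for Wnt9b to 8.28 for Wnt3a, while the co-receptors lie between -0.54 and 0.39.

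Among the ligands the widest gap was that of Wnt3a, a potent activator of beta-catenin signalling. The lowest, median and highest lung values were 8.11, 8.68 and 8.87, while 5 of 6 hearts were listed at 0 and the heart of WT replicate 3 had 1.73. That last value stands for 0.793 estimated counts, raised by the constant of its library. With a floor of 3 counts over the 6 hearts, Wnt3a was at least 899-fold higher in the lungs relative to library depth, and the fitted difference, which depends on the 1 added before the log and is no bound, was 8.28 (SE 0.32, adjusted p = 1.03e-10, limma). Wnt3a had the largest of the 37 differences either way, so their median of 0.62 could not change with this bound.

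Wnt7a, an epithelial ligand, had a lowest, median and highest value of 7.21, 8.03 and 8.33 in the lungs and of 0.00, 0.97 and 2.78 in the hearts, a difference of 6.83 (SE 0.41, adjusted p = 7.71e-09, limma). Wnt7b, its near relative, known for its part in lung growth, ran from 5.97 to 6.88 in the lungs with a median of 6.60, and from 0.00 to 2.65 in the hearts with a median of 1.87, a difference of 4.83 (SE 0.44, adjusted p = 4.41e-07, limma). These 2 genes held 9.07 and 11.7 estimated counts over the 6 hearts, so their heart levels are close to the limit of detection.

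Wnt2, which lung mesenchyme makes, had a lowest, median and highest value of 8.79, 9.11 and 9.78 in the lungs. In the hearts these were 4.08, 4.87 and 5.18. The difference was 4.43 (SE 0.21, adjusted p = 8.53e-10, limma), a 21.5-fold higher abundance in the lung with a 95% interval of 15.6 to 29.6. Wnt2 in single hearts amounted to 2.88% to 6.38% of its median lung level. This is above the share of at most 0.424% for the 5 lung epithelial markers given above, which leave out Hopx, Foxj1 and Krt5.

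Wnt10b, known from bone and fat, ran from 7.22 to 8.49 in the lungs with a median of 8.02, and from 3.05 to 4.08 in the hearts with a median of 3.63, a difference of 4.39 (SE 0.26, adjusted p = 6.06e-09, limma). Wnt4, known for kidney and reproductive tract development, ran from 6.36 to 6.91 in the lungs and from 2.63 to 3.91 in the hearts, a difference of 3.09 (SE 0.20, adjusted p = 1.62e-08, limma). For all 6 ligands that were higher in the lung, the lowest lung lay above the highest heart. The lung of WT replicate 3 was the lowest lung for Wnt3a, Wnt7a, Wnt7b and Wnt10b and the highest for Wnt2, and all 6 ligands passed without it too.

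Wnt5a, the leading ligand of signalling without beta-catenin, was the only ligand that passed in the other direction. Its lowest, median and highest values were 7.42, 7.57 and 7.84 in the lungs against 7.89, 8.34 and 8.37 in the hearts, a difference of -0.66 (SE 0.12, adjusted p = 2.79e-04, limma). With the gene value taken as the sum of its transcripts, the difference was -0.47 and Wnt5a no longer reached the fold threshold. Wnt9b, Wnt16 and Wnt6 had differences of -3.51, -3.43 and -1.88 with adjusted p-values from 9.32e-06 to 0.0038 (limma) and without overlap between organs, but no group mean of at least 6. The remaining 4 ligands tested did not pass, at 1.29 for Wnt2b, which had no overlap but no group mean of at least 6 either, 0.51 for Wnt11, -0.36 for Wnt9a and -0.42 for Wnt5b. Wnt5b was lower in the lung past the thresholds when libraries were centred on their medians, at -0.63, with limma-voom, at -0.65, with quantile normalization, at -1.18, and in KO mice alone, at -0.72. Wnt9a passed as lower with limma-voom, at -0.63, and with quantile normalization, at -0.79. Wnt11 passed as higher with summed transcripts, at 0.64, and without the lung of KO replicate 3, at 0.61, and stood at -0.020 with quantile normalization.

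Wnt5a has 2 coding transcripts with counts, which begin 6867 bases apart on the forward strand of chromosome 14 (GRCm39, GENCODE vM39). Wnt5a-201 starts at 28226495 with an exon of 1577 bases, and Wnt5a-202 starts at 28233362 with an exon of 19 bases that holds no coding sequence. The coding start of Wnt5a-201 is shown because it sets the 2 transcripts apart: its first 60 bases, in capitals, encode 20 residues absent from Wnt5a-202, whose own start codon is the first atg in lower case. It lies at chr14:28228066-28228071 in exon 1 and chr14:28233780-28233863 in exon 2, with the start codon of Wnt5a-202 at 28233834.
Wnt5a-201: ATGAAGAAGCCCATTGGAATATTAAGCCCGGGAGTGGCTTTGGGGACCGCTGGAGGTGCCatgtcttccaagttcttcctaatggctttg
Of the estimated counts of Wnt5a, Wnt5a-201 took 71.7%, 74.2% and 61.3% in the WT lungs and 76.9%, 61.0% and 63.3% in the KO lungs. In the hearts it took 45.3%, 50.4% and 46.1% in WT and 43.2%, 55.3% and 61.4% in KO. The means were 68.1% ± 7.03 in the lungs and 50.3% ± 6.96 in the hearts (SD, n = 6 each), and the ranges touched at 61.0% to 61.4%. The gene was picked after its values were seen, so no test is given, and the split rests on the authors' estimate of how shared reads divide between transcripts.

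For 2 other ligands much of the count lay outside the longest coding transcripts. In the lungs 51.8% to 69.3% of the Wnt10b counts were assigned to Wnt10b-206, whose coding sequence has 513 bases, beside 29.4% to 48.2% for Wnt10b-201 with 1167 bases. For Wnt11, 1 transcript annotated as a target of nonsense-mediated decay took 30.4% to 62.5% of the counts in the lungs. In the hearts it took 22.3% to 54.0%. Another Wnt11 transcript with this annotation took 1.61% to 20.6% in the lungs and 0% to 16.0% in the hearts. For both genes the abundance is therefore not that of the full-length coding transcript alone.

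Several ligands are neighbours in the genome and were set side by side. Wnt3a lies at chr11:59138859-59181584 on the reverse strand and Wnt9a at chr11:59197567-59224378 on the forward strand, 16.0 kb apart. Wnt3a was close to 0 in the hearts, while Wnt9a ran from 6.48 to 7.35 in the lungs and from 7.09 to 7.78 in the hearts. Wnt9b and Wnt3, 24.3 kb apart on the same chromosome, showed opposite differences, with Wnt3 listed at 0 in the hearts and Wnt9b at 4.17 to 5.73 in the hearts against 0.00 to 2.37 in the lungs. The GENCODE vM39 extents of Wnt10b and Wnt1 overlap by 2308 bases on opposite strands of chromosome 15. The Wnt10b transcripts in the deposited data reach at most to position 98676449, however, and Wnt1 begins at 98687738, so these transcripts do not overlap Wnt1. Wnt1 was listed at 0 in all 12 libraries.

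Levels of different genes were set side by side after division by transcript length. Within the lung ligands, Wnt2 was the highest in 6 of 6 libraries, with 19.3% to 40.2% of the summed ligand level and a median of 22.1%. Wnt3a came next with 13.98% to 19.6%, so the lowest Wnt2 share and the highest Wnt3a share overlap slightly. In the lung of KO replicate 2 both genes stood at 19.32%, so Wnt2 had no clear lead there. Wnt10b, Wnt7a and Wnt11 followed with medians of 12.9%, 11.2% and 10.2% and overlapping ranges. In the hearts no ligand led in every library: Wnt9a, Wnt11 and Wnt5a had medians of 23.3%, 21.5% and 21.1% with overlapping ranges, and were highest in 3, 1 and 2 hearts. Wnt5b followed with a median of 14.8%, and Wnt2 held 2.36% to 4.78%. On this scale the lung had a ligand set led by Wnt2 and Wnt3a, and the heart one shared among Wnt9a, Wnt11, Wnt5a and Wnt5b. The Wnt10b and Wnt11 levels sum all their transcripts, including those described above with a short coding sequence or annotated for decay. Their shares and ranks are therefore not those of full-length coding transcripts alone.

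**Figure D3:**
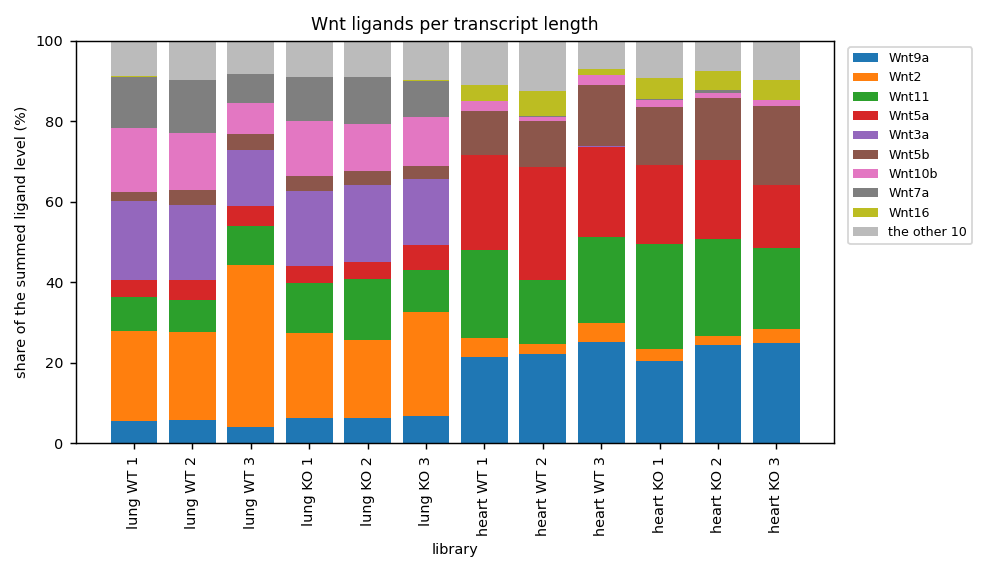
Shares of 9 ligands, and of the other 10 together (grey), in the summed ligand level per transcript length (percent, bars stacked to 100) in each of the 12 libraries. Wnt2 (19.3% to 40.2%) and Wnt3a (13.98% to 19.6%) are large in the lungs, while Wnt9a, Wnt11, Wnt5a and Wnt5b make up most of each heart.

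The Frizzled receptors, which bind the ligands through a cysteine-rich domain, were higher in the lung for 7 of 9 genes tested, and for 5 of 9 with centred libraries, where Fzd2 and Fzd4 did not pass and Fzd6 was lower. Fzd5 ran from 9.41 to 9.97 in the lungs with a median of 9.66, and from 7.98 to 8.33 in the hearts with a median of 8.21, a difference of 1.51 (SE 0.11, adjusted p = 7.11e-08, limma). Fzd1 ran from 9.70 to 10.60 in the lungs and from 8.52 to 9.04 in the hearts, a difference of 1.41 (SE 0.12, adjusted p = 2.40e-07, limma). Fzd7, Fzd3, Fzd8 and Fzd2 were higher by 1.31, 1.24, 1.16 and 0.69, and no lung of these 6 receptors overlapped a heart.

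Fzd4, the receptor through which norrin acts on blood vessels, was the highest Frizzled receptor per length in 5 of 6 lungs and 6 of 6 hearts, with medians of 32.5% and 34.0% of the summed Frizzled level. In the lung of WT replicate 3 Fzd1 was the highest. The lowest, median and highest abundance of Fzd4 was 10.90, 11.58 and 11.71 in the lungs and 10.65, 10.76 and 11.08 in the hearts, which overlap. The difference of 0.62 (SE 0.14, adjusted p = 0.0010, limma) lies 0.31 above the median of all genes, and Fzd4 did not pass with limma-voom, with centred libraries, in WT alone, or without the lung of WT replicate 2 (0.51) or the heart of WT replicate 3 or KO replicate 3 (0.58 each). Fzd2 likewise did not pass under limma-voom, centring or quantile normalization.

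Endothelial markers were measured beside Fzd4. All 4 of 4 (Pecam1, Cdh5, Kdr and Tie1) were higher in the lung, and their summed level ran from 15.06 to 15.39 in the lungs and from 13.79 to 13.97 in the hearts. Their part in the result was not tested. Leukocyte markers, 4 of 4 higher in the lung, had a summed level of 12.21 to 12.82 in the lungs and 7.61 to 8.11 in the hearts, and the smooth muscle and pericyte list, with 2 of 4 lower in the lung, 12.96 to 13.48 against 13.50 to 14.29.

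The other 3 Frizzled genes did not follow the rest. Fzd6, a receptor of planar cell polarity, ran from 7.94 to 8.84 in the lungs and from 8.53 to 9.24 in the hearts. Its difference of -0.57 (adjusted p = 0.0070, limma) was under the fold threshold. Fzd6 passed as lower in the lung with centred libraries at -0.78, limma-voom at -0.81 and quantile normalization at -0.69. The same held in KO mice alone at -0.64, and at -0.60 without both the heart of WT replicate 3 and the heart of KO replicate 2. It also passed, at -0.60 to -0.71, when the lung of WT replicate 3, KO replicate 2 or KO replicate 3 or the heart of WT replicate 3 or KO replicate 1 was left out. Fzd9 had a difference of -2.75 without overlap but stayed under a group mean of 6. Fzd10 was under the filter, at 1.04 to 3.78 in the 12 libraries.

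None of the co-receptors passed as deposited, though Ror1 and Ror2 depended on the scaling. Lrp6 was the highest of them per length in all 12 libraries, with medians of 53.4% of the co-receptor level in the lungs and 57.5% in the hearts. Its abundance ran from 11.84 to 12.18 in the lungs and from 11.74 to 12.18 in the hearts, and the difference of 0.12 had a 95% interval of -0.10 to 0.33, with the sign reversed under limma-voom and with centred libraries. Lrp5, Ror2 and Ror1 had differences of 0.39, -0.23 and -0.54. Ror1 passed as lower in the lung with limma-voom at -0.80, with centred libraries at -0.76 and in WT mice alone at -0.70. It also passed, at -0.59 to -0.62, without the lung of KO replicate 3 or the heart of WT replicate 1 or 2. With quantile normalization Ror1 (-0.75) and Ror2 (-1.03) both passed as lower in the lung. On the deposited scale the 95% intervals of all 4 co-receptors lay within a 2-fold change.

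Axin2, which encodes a scaffold of the beta-catenin destruction complex and is a widely used readout of the pathway, was higher in the lung. Its lowest, median and highest values were 8.71, 8.86 and 9.27 in the lungs and 7.20, 7.49 and 8.29 in the hearts, a difference of 1.38 (SE 0.17, adjusted p = 7.13e-06, limma). Rspo1, the highest R-spondin per length in all 12 libraries, ran from 7.02 to 7.41 in the lungs and from 5.13 to 6.31 in the hearts, a difference of 1.39 (SE 0.19, adjusted p = 2.43e-05, limma). Rspo3 differed by 1.76 without overlap, with no group mean of at least 6.

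Of the secreted antagonists, 4 of 7 tested were lower in the lung. Sfrp5, a soluble decoy for Wnt ligands, had a lowest, median and highest value of 1.19, 2.84 and 3.40 in the lungs and of 5.53, 6.67 and 7.25 in the hearts, a difference of -3.86 (SE 0.43, adjusted p = 2.95e-06, limma). Wif1, which binds ligands outside the cell, had 5.997, 6.30 and 6.91 in the lungs and 7.77, 8.10 and 8.21 in the hearts, a difference of -1.68 (SE 0.16, adjusted p = 7.58e-07, limma). Sfrp1, a decoy of the same family as Sfrp5, had 7.74, 8.13 and 8.32 in the lungs and 9.0002, 9.12 and 9.56 in the hearts, a difference of -1.08 (SE 0.13, adjusted p = 6.15e-06, limma), a 2.11-fold lower level with a 95% interval of 1.73 to 2.56. In these 3 genes every heart lay above every lung. Sfrp2, Sfrp4 and Dkk2 did not pass, at -0.23, 0.80 and 0.65. Their lowest values over the alternatives were -1.08, -0.38 and -0.33, so the direction of Sfrp4 and Dkk2 was not stable.

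Dkk3, a divergent Dickkopf whose action on Wnt signalling is less settled than that of the others, was the highest antagonist per length in all 12 libraries, with a median of 63.3% of the antagonist level in the lungs and 69.1% in the hearts. Its abundance was 12.07, 12.22 and 10.16 in the WT hearts and 12.83, 10.57 and 12.78 in the KO hearts, against 10.10 to 10.58 in the lungs. The heart of WT replicate 3 and the heart of KO replicate 2 thus sat at the level of the lungs, and the other 4 hearts above them. The difference was -1.41 (SE 0.41, adjusted p = 0.0072, limma), and -1.02 (adjusted p = 0.099) in WT mice alone.

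The same 2 hearts were the lowest for Sfrp5, at 5.56 and 5.53 against 6.63 to 7.25 in the other 4. They were also the lowest for 3 genes of atrial muscle that were picked after their values were seen: Myl7 at 12.47 and 12.76 against 14.49 to 15.41, Myl4 at 12.35 and 12.24 against 14.18 to 15.16, and Sln at 9.83 and 10.10 against 12.28 to 12.65. The atrial peptide gene Nppa did not separate them, at 14.03 and 15.72 against 15.35 to 16.32. Of the 4 white fat markers (Adipoq, Plin1, Lep and Cfd), 4 were lowest in these 2 hearts as well, Adipoq at 5.93 and 6.78 against 8.24 to 9.86. The part of these genes in the result was not tested. Without these 2 hearts the difference between lung and heart was -2.11 for Dkk3 and -4.32 for Sfrp5, and both passed.

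**Figure D4:**
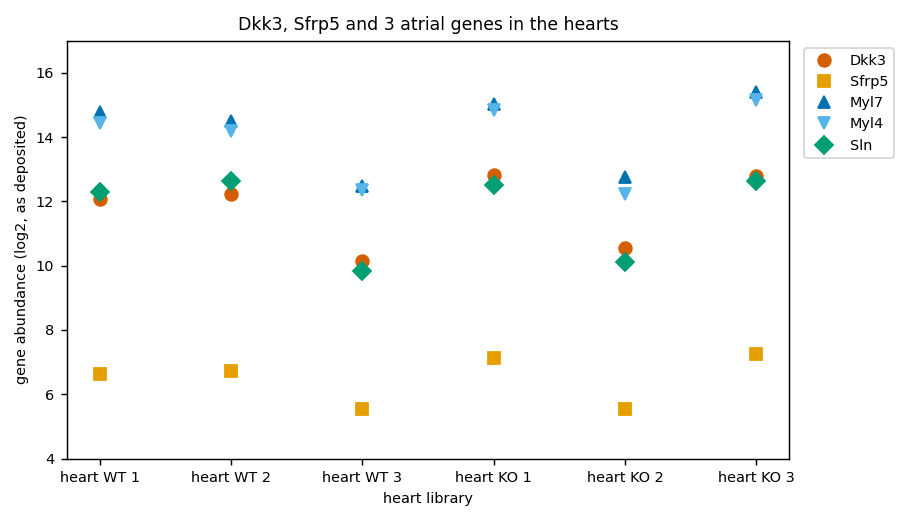
Gene abundance (log2, as deposited) of the antagonists Dkk3 and Sfrp5 and of the atrial genes Myl7, Myl4 and Sln in each of the 6 hearts. All 5 genes have their 2 lowest values in the heart of WT replicate 3 and the heart of KO replicate 2.

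The sum of the 9 antagonists per length was set against the sum of the 19 ligands, as a description with no test. This ratio was 0.531, 0.476 and 0.557 in the WT lungs and 0.503, 0.563 and 0.522 in the KO lungs. In the hearts it was 5.45, 6.58 and 2.25 in WT and 6.76, 2.17 and 6.32 in KO. With Dkk3 left out it ran from 0.165 to 0.253 in the lungs and from 1.18 to 1.97 in the hearts. Antagonist transcripts thus outnumbered ligand transcripts in every heart and in no lung, with Dkk3 or without it.

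The promoters of the 2 genes that passed with the largest difference in each direction, Wnt3a and Sfrp5, are shown, from 250 bases before to 50 bases after the transcription start (RefSeq, GRCm38.p6, an older build than that of the gene positions above). Capitals mark matches, on either strand, to CTTTGA, a motif of TCF and LEF factors. They also mark AGATAA, which GATA factors bind, and the core promoter motif TATAAA. Wnt3a lies on the reverse strand at chr11:59290702-59291001 and Sfrp5 on the reverse strand at chr19:42202203-42202502.
Wnt3a: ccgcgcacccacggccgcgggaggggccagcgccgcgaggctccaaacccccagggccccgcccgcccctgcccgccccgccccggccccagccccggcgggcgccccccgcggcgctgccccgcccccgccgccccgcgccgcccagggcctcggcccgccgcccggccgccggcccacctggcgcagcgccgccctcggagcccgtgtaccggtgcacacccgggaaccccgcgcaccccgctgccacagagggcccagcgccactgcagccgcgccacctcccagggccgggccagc
Sfrp5: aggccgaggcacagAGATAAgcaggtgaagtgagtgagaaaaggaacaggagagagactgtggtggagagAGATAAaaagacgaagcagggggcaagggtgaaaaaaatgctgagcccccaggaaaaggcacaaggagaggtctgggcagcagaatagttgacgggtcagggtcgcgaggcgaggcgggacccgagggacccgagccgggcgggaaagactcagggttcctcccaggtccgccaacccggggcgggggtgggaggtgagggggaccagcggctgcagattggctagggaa
The Wnt3a window held none of the 3 motifs, and the Sfrp5 window held 2 matches to AGATAA, at positions 15 and 71 from its 5′ end. RefSeq promoters were matched for 31 of the 47 genes, in 34 windows. CTTTGA was in 14.7% of these windows and in 16.0% of all 32851 promoters, AGATAA in 8.82% and 11.2%, and TATAAA in 14.7% and 13.6%. A match is a run of letters and not evidence of binding.

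The other genes of the pathway were taken from a list of 54 fixed with the tests, when earlier results of these data were known. Of the 51 tested, 37 passed, 26 higher and 11 lower in the lung, which is 72.5% beside 51.3% of all genes tested. This share is a description, and the list as a set was not tested. Notum, an enzyme that strips the lipid from Wnt proteins, ran from 6.70 to 7.31 in the lungs and from 0.00 to 2.81 in the hearts, a difference of 5.74 (SE 0.47, adjusted p = 1.50e-07, limma). Rnf43, a ligase that removes Frizzled receptors, differed by 5.36 (SE 0.64, adjusted p = 5.72e-06, limma), with lungs at 7.98 to 8.48 and hearts at 0.00 to 4.53. Lef1, a transcription factor that partners beta-catenin, differed by 5.05 (SE 0.43, adjusted p = 2.11e-07, limma), with lungs at 7.04 to 8.07 and hearts at 0.00 to 3.84. Of the 4 common target genes on the list (Ccnd1, Myc, Sp5 and Tnfrsf19), 2 passed, both higher in the lung, and Myc had a difference of 0.26, under the median of all genes.

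The 3 largest differences in the other direction included 2 more antagonists. Frzb, a secreted frizzled-related protein outside the symbol rule, ran from 0.61 to 3.81 in the lungs and from 6.88 to 7.95 in the hearts, a difference of -4.54 (SE 0.44, adjusted p = 7.54e-07, limma). Sost, which blocks Lrp5 and Lrp6, ran from 2.78 to 3.77 in the lungs and from 6.18 to 8.61 in the hearts, a difference of -4.29 (SE 0.29, adjusted p = 2.00e-08, limma). Lgr4, a receptor of R-spondins, differed by -2.55 (SE 0.13, adjusted p = 1.08e-09, limma), with lungs at 7.52 to 8.25 and hearts at 10.45 to 10.75. For each of the 3, every heart lay above every lung.

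The second comparison asked whether the loss of Adam19 changed these genes within a tissue. No Wnt gene passed in the lung (0 of 32 tested) or in the heart (0 of 33), beside 0.0665% of 16551 genes in the lung and 0.085% of 15303 in the heart, and none passed with limma-voom or under any other alternative run. At an unadjusted p under 0.05 (limma) there were 2 in the lung and 4 in the heart, beside 5.93% and 7.46% of all genes. The median difference of KO from WT was 0.01 over the 32 Wnt genes in the lung, as over all genes, and 0.14 over the 33 in the heart beside 0.03 over all genes. The 95% interval of the difference lay within a 2-fold change for 30 of 32 genes in the lung and 19 of 33 in the heart, and within a 1.5-fold change for 9 in each tissue. For the remaining genes the interval reached beyond these sizes, so such a change can be neither shown nor set aside with 3 mice of a genotype. Of the other pathway genes, 0 of 49 passed in the lung and 0 of 45 in the heart, with 1 and 10 at an unadjusted p under 0.05.

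**Figure D5:**
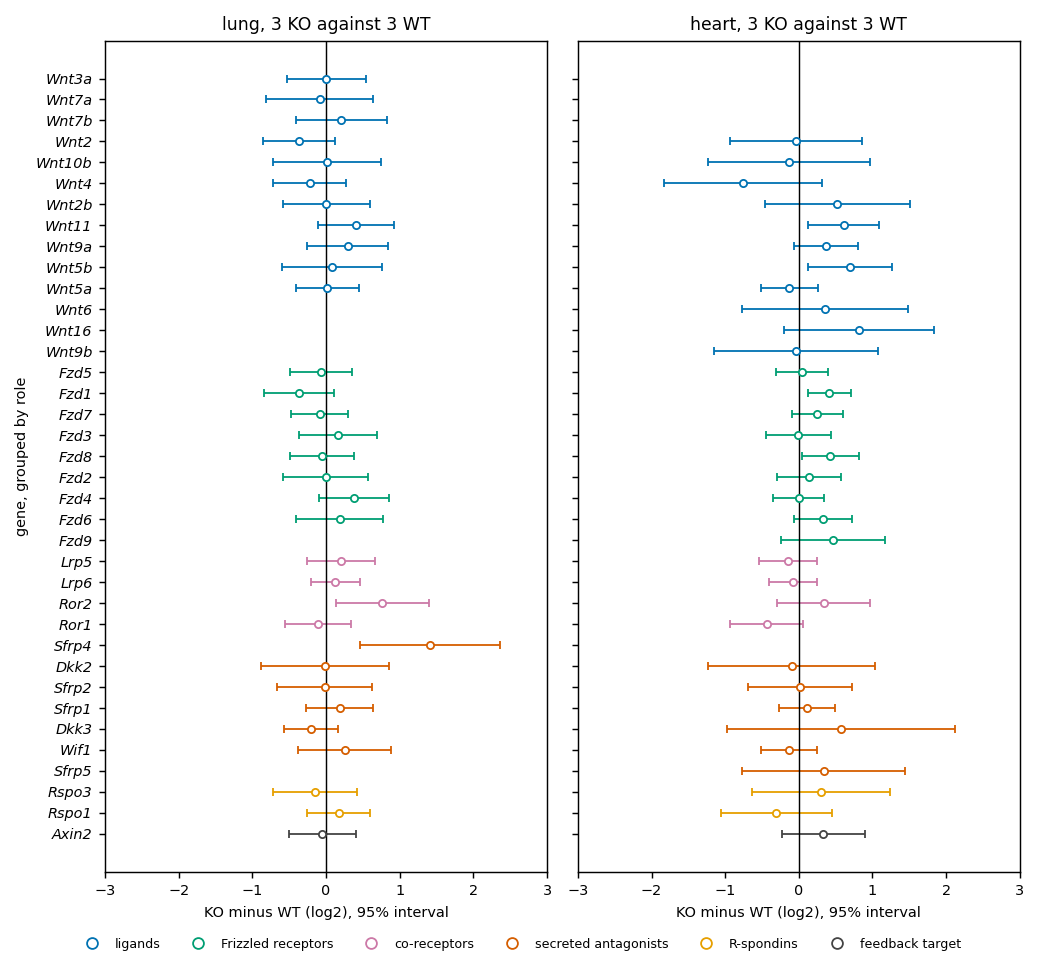
Difference of KO from WT (log2) with its 95% interval for each Wnt gene tested in the lung (left) and the heart (right), 3 libraries of each genotype, coloured by role. Open points did not pass the thresholds, which is every gene here, and 30 of 32 intervals in the lung and 19 of 33 in the heart lie within a 2-fold change.

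In the lung the 3 smallest p-values were those of Sfrp4, Ror2 and Fzd4. For Sfrp4, a secreted frizzled-related protein, the WT lungs had 3.94, 2.90 and 3.14, and the KO lungs had 4.80, 4.82 and 4.60. The KO lungs did not overlap the WT lungs, and the difference was 1.41 (SE 0.42, unadjusted p = 0.0086, adjusted p = 0.81, limma) on a level of 114 estimated counts over the 6 lungs. Over the alternatives this difference ran from 0.91 to 1.72. The counts were split among several Sfrp4 transcripts of unlike length, in shares that varied between lungs. In the hearts, where Sfrp4 was under the filter, the values were 2.27, 2.82 and 2.68 in WT and 3.45, 4.04 and 4.17 in KO, from the same mice. The summed alveolar epithelium markers also had no overlap in the lungs, at 18.15 to 18.31 in WT and 17.64 to 17.96 in KO, as did the skeletal muscle markers, at 9.14 to 11.05 and 7.83 to 8.89. The cardiomyocyte markers, at 13.78 to 14.53 and 13.21 to 13.78, met at their edges. The other marker lists overlapped between genotypes in the lung, and no single marker of any list passed there. The part of these markers in the values of Sfrp4 and Ror2 was not tested.

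For Ror2 the WT lungs had 5.12, 5.53 and 4.94, and the KO lungs 6.08, 5.80 and 6.01, again without overlap, a difference of 0.77 (SE 0.28, adjusted p = 0.81, limma). For Fzd4 the WT lungs had 11.13, 11.70 and 10.90, and the KO lungs 11.71, 11.57 and 11.58, which overlap, a difference of 0.38 (SE 0.21, adjusted p = 0.84, limma). In the lung 2 of 32 genes (6.25%) had no overlap between genotypes, beside 12.8% of all genes.

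Wnt2, the highest lung ligand, had 9.21, 9.10 and 9.78 in WT lungs against 9.12, 8.79 and 9.11 in KO lungs. The difference was -0.36 with a 95% interval of -0.85 to 0.12 (adjusted p = 0.84, limma). Wnt3a had a difference of 0.01 with an interval of -0.53 to 0.54, Sfrp1 of 0.18 with an interval of -0.27 to 0.64, and Axin2 of -0.05 with an interval of -0.51 to 0.41.

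In the heart the 3 smallest p-values were those of Fzd1, Wnt11 and Wnt5b. Fzd1 was at 8.52, 8.61 and 8.61 in the WT hearts and at 9.04, 8.98 and 8.96 in the KO hearts, a difference of 0.41 (SE 0.13, unadjusted p = 0.011, adjusted p = 0.57, limma). Wnt11, a ligand known from heart development, was at 6.45, 6.04 and 6.46 in WT and 6.95, 7.05 and 6.79 in KO, a difference of 0.61 (SE 0.21, adjusted p = 0.61, limma). The Wnt11 difference ran from 0.47 to 0.69 with 1 library left out, and fell to 0.30 at the lowest over all alternatives. Wnt5b was at 5.69, 5.63 and 6.18 in WT and 6.31, 6.54 and 6.73 in KO, a difference of 0.69 (SE 0.25, adjusted p = 0.61, limma).

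In each of these 3 genes the KO hearts lay above the WT hearts, and none passed. In all, 8 of 33 genes (24.2%) had no overlap between genotypes in the heart, beside 13% of all genes: Wnt5b, Wnt11, Wnt16, Fzd1, Fzd7 and Fzd8 with KO above WT, and Wnt4 and Ror1 with KO below WT. The summed smooth muscle and pericyte markers also had no overlap in the hearts, at 13.50 to 13.83 in WT and 14.15 to 14.29 in KO, and their part in these values was not tested. The other marker lists overlapped between genotypes in the heart, and no single marker of any list passed there. For Wnt2 the difference in the heart was -0.04 with an interval of -0.93 to 0.86, for Sfrp1 0.11 (-0.27 to 0.49) and for Fzd4 -0.0022 (-0.35 to 0.35).

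The third comparison asked whether the genotype difference itself differed between the organs. No Wnt gene passed (0 of 37, beside 0.00566% of 17666 genes), and 1 had an unadjusted p under 0.05 (limma), beside 7.88% of all genes. That gene was Fzd1, whose WT and KO lungs overlapped at 10.30, 10.25 and 10.60 against 10.42, 9.70 and 9.91. Its difference of KO from WT was -0.37 in the lung and 0.41 in the heart, and the gap between these was -0.78 (SE 0.24, unadjusted p = 0.0072, adjusted p = 0.53, limma). Fzd8 and Wnt5b came next with gaps of -0.48 (95% interval -1.03 to 0.06) and -0.61 (-1.46 to 0.24).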

How the data were processed

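Strand-specific total RNA libraries were made from lung and heart of 3 WT and 3 KO mice. The authors quantified reads against GENCODE transcripts of mm39 with Salmon and deposited a gene and a transcript table, both as log2 values. In the deposited transcript table each value equals the log2 of 1 plus an estimated count, and the gene values of single-transcript genes equal these plus a constant for each library, from -0.63 to 0.80, within 0.01 in at least 95.7% of such genes. Zeros were kept. How the constants were set is not given in the sources used here.

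Genotypes were compared within a tissue, and organs and the interaction in 1 model of 4 group means over 12 libraries, using limma 3.58.1 (R 4.3.3; linear models, then empirical Bayes with a variance trend). The filter was 3.46, the log2 of 1 + 10, in at least 3 libraries. Thresholds were 0.05 for the Benjamini-Hochberg adjusted p over all genes, 1.5 for the fold change and 6 for the larger group mean, without the fold for the interaction. Fold changes are on the log2(1 + count) scale and understate those of low genes. Replicates are separate mice. Mouse identifiers pair the organs, and deviations of lung and heart correlated at 0.05, 0.14 and -0.02 (WT) and 0.02, -0.07 and -0.04 (KO) over 17666 genes. WT and KO share no identifier prefix, so a litter or cage difference cannot be told apart from genotype. Levels per length are estimated counts divided by GENCODE vM39 transcript length and are given as shares within a role. The 47 genes and all lists were chosen with earlier results of these data known. Genes were named by a rule: Wnt2, Sfrp1 and Fzd4, up to 8 genes in each direction between organs that passed without overlap, the 3 smallest p-values of each genotype comparison, the highest per length of each role, and the 3 largest in each direction among other pathway genes. The tests were tested on simulated data. Alternatives included other filters, pseudocounts (8 in place of 1), scalings, limma-voom on values taken back to estimated counts with factors from a trimmed mean of M values, summed transcripts, single genotypes, the mouse as a block and each library left out.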

Additional observations from a re-analysis of the deposited data

How the results depend on the processing

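Of the 20 Wnt genes that differed between lung and heart, 16 passed in every alternative that gave a value, of 24 run, and 20 kept their sign. The exceptions were Fzd4, Fzd2, Wnt5a and Dkk3, described with their values above. The stricter filter, with every library over the limit, left Wnt3a, Wnt4, Wnt7a, Wnt7b, Wnt10b and Sfrp5 untested. The number of Wnt genes lower in the lung was 9 with limma-voom, 8 with centred libraries and 10 with quantile normalization, against 5 as reported. The median of all genes was 0.06, 0.09 and 0.07 under these, against 0.31, and the cause of the added calls was not tested. Lrp6 turned to -0.13 with limma-voom and -0.10 with centred libraries, and Wnt11 to -0.020 with quantile normalization, where Sfrp4 and Dkk2 also turned, to -0.38 and -0.33.

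Over all genes, the number that passed between genotypes was 1 with the stricter filter in the lung against 11, and in the heart 7 with the stricter filter and 31 without the 2 hearts low in atrial genes (an alternative chosen after seeing the data) against 13, with 10 to 21 when 1 library was left out. For the difference of genotype effects it was 2 with 8 added before the log2, 0 with centred libraries and 2 with the mouse as a replicate block, against 1, and 0 to 5 when 1 library was left out. Under all of these, 0 Wnt genes passed between genotypes. The block changed no call of a Wnt gene between organs (20 passed with the pairing, 15 higher and 5 lower). Heart differences of KO from WT near 0 changed sign: Wnt2 ran from -0.39 to 0.16 and Sfrp1 from -0.059 to 0.22 with 1 library left out, Fzd4 from -0.085 to 0.13, and Wnt2 was 0.29 without the 2 hearts low in atrial genes and Fzd4 0.041 with quantile normalization. The ratios of antagonists to ligands moved by less than 1 SD with the length of each gene's longest transcript. With Dkk3 included, the SD was 0.033 on a mean of 0.525 in the lungs. In the hearts it was 2.15 on a mean of 4.92, a wide margin that a large shift could also meet.

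Depth limits the genes with few counts: those under the filter were not tested, and with 3 mice of a genotype the interval of the difference lay within a 2-fold change for 19 of 33 Wnt genes in the heart and 30 of 32 in the lung.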
